A study of Mus musculus with 11 samples.

Results

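Collagens and laminins are the structural proteins of the extracellular matrix. All genes whose symbol is Col, a number, a and a number, or Lam, a letter from a to c and a number, were taken from the deposited table, which gave 53 of its 22377 genes: 42 collagen genes and 11 laminin genes. A mean of at least 1 CPM (reads scaled to the library total) over all libraries was needed for a test, and 42 of the 53 passed it. They were sorted into 6 roles: fibrillar collagens (11 genes, 9 passing), fibril-associated collagens (7, 5 passing), basement membrane collagens (8, 7 passing), laminin chains (11, all passing), type VI and other network collagens (11, 6 passing), and membrane-spanning and neuronal collagens (5, 4 passing). All 53 are annotated as protein-coding. Counts and medians below are over the members that passed, and they describe those members only.

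Fibrillar collagens assemble into the banded fibres of connective tissue, and in the brain they are made mainly by fibroblasts of the meninges and of the larger vessels. Type IV collagen and laminins form linked networks in the basement membranes that wrap vessels and cover the brain surface, and receptors such as the integrins bind them. A few collagens with a membrane-spanning segment are made by neurons, among them type XXV, which is found in amyloid plaques.

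Hippocampal RNA was profiled by cap analysis of gene expression (CAGE), a method that sequences transcripts from their capped 5′ end, in male C57BL/6N mice aged 8 to 10 or 65 to 85 weeks. The sources used here do not say which library came from which age, how many animals gave RNA to it, or whether the sides of a condition share animals. Stroke was induced by photothrombosis (PT), in which rose bengal (35 mg/kg, i.p.) and 30 min of 565 nm LED light on a circle of 3.5 mm over the left parietal lobe clot the cortical vessels. Levetiracetam (LEV), an anti-seizure drug, was supplied for 2 weeks in drinking water (5 mg/mL). There was 1 library from naive mice and 1 each from the infarcted and the non-infarcted side in 5 conditions: PT 7 d, PT 7 d with LEV, PT 1 m, PT 1 m with LEV, and PT 2 m with LEV withdrawn. The series text has LEV start 1 month after PT, so when the 7 d animals received it is not given; it also gives the withdrawal as 1 week, where the sample labels give 2 weeks. At 2 m, time after PT, earlier LEV and its withdrawal cannot be told apart. The lesion is cortical, so the hippocampal tissue of the infarcted side lies on the side of the lesion and is not the lesion itself.

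Library totals ran from 13382623 to 22377376 reads, and a count of 0 in a library allows up to 3 reads, or 0.134 to 0.224 CPM. The summed CPM of 8 hippocampal neuron markers was between 2983 and 4027 in all 11 libraries. Markers of 2 other tissues differed widely between libraries. The sum of 12 choroid plexus markers was 59.3 in the infarcted and 1446 in the non-infarcted PT 1 m library, 1803 and 106.6 in the PT 1 m LEV pair, 4075 and 1280 at 2 m, and between 3186 and 4864 in the 4 libraries at 7 d and the naive library. The sum of 12 markers of meningeal and perivascular fibroblasts was 372.5 in the infarcted PT 7 d LEV library and 336.5 in the infarcted 2 m library, against 124.0 to 214.6 in the other 9, and no marker of either list was at 0 in any library. In RNA from whole tissue, a change in the number of cells of a type and a change in RNA per cell cannot be told apart. Earlier results of these data had the 7 d and 2 m libraries standing apart from the naive and 1 m libraries. Olig2, a marker of oligodendrocyte precursors, had 21.6 to 26.2 CPM at 7 d and 30.4 to 36.0 at 2 m, against 12.6 to 16.3 at 1 m and 15.9 in naive. Of the same list, Pdgfra parted in this way too, while Olig1, Cspg4, Gpr17 and Neu4 did not. Prox1, a marker of hippocampal neurons, did not either. Such a split lies along the time and 2 m contrasts and cannot be told apart from time there.

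Each library is the only one of its group, so conditions served as the repeats: limma tested log2(CPM + 1) over 16057 genes, with Benjamini-Hochberg adjustment in each contrast and a threshold of 0.05. Values below are given for the infarcted and then the non-infarcted side. p-values rest on the spread between these libraries, whose source animals are not given. For LEV, time and 2 m contrasts, means of both sides of the earlier PT conditions were fitted with added time and LEV effects. The spread there is what this fit leaves, the change of the LEV difference with time (1 residual degree of freedom), moderated over all genes. The 2 m libraries add nothing to it, so these p-values do not measure the spread at 2 m.

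The largest rises over time were those of 4 fibrillar collagen genes, Col1a1, Col1a2, Col3a1 and Col5a2, which were higher at 2 m than in the 4 earlier PT conditions by 2.11 to 2.80 times in mean CPM. Lamb2, the beta2 chain of the laminins, and Col6a3, the long chain of type VI collagen, rose as well. These 6 were the only members past the threshold against the 4 earlier conditions, 14.3% of the 42, where 9.07% of all genes tested were higher; 0 members were lower, where 7.91% of all genes were. Against the 7 d conditions alone, only the 4 fibrillar genes rose, 9.52% of the members beside 1.53% of all genes, and 0 fell, beside 3.85% of all genes.

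Col1a1 had 18.8 and 14.1 CPM at 7 d (26.2 and 8.70 with LEV), 15.9 and 17.2 at 1 m (14.2 and 7.02 with LEV) and 31.7 and 32.7 at 2 m, beside 11.8 in naive. Col1a1 encodes the alpha1 chain of type I collagen, the main fibre protein of connective tissue, and lies at chr11:94936224-94953042, plus strand. Both 2 m libraries were above the other 9, and the infarcted PT 7 d LEV library came next. Mean CPM at 2 m was 2.11 times that of the 8 earlier PT libraries, 32.2 ± 0.73 (SD, n = 2 libraries) against 15.3 ± 5.97 (SD, n = 8). The difference in log2(CPM + 1) was 1.12 ± 0.16 (SE; adjusted p = 0.000116), 0.99 ± 0.18 (SE; adjusted p = 0.0015) against 7 d, and 1.45 ± 0.19 (SE; adjusted p = 2.33e-05) against PT 1 m LEV. The last is against PT 1 m LEV as fitted from added time and LEV effects. The measured differences from the PT 1 m LEV libraries were 1.11 on the infarcted and 2.07 on the non-infarcted side.

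Col1a2 was at 3.71 CPM in naive, 3.14 and 3.80 at 7 d, 7.60 and 1.64 at 7 d with LEV, 3.36 and 3.87 at 1 m, 2.90 and 1.79 at 1 m with LEV, and 8.17 and 8.13 at 2 m. The alpha2 chain of type I collagen, which assembles with the alpha1 chain, comes from Col1a2 (chr6:4504814-4541544, plus strand). It too was highest in the 2 m libraries, whose sides differed by less than their counting error, and the infarcted PT 7 d LEV library came close to them. The difference at 2 m from the earlier conditions was 1.11 ± 0.19 (SE; adjusted p = 0.000648), and from 7 d it was 0.99 ± 0.21 (SE; adjusted p = 0.00658).

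Col3a1 had 2.57 and 1.68 CPM at 7 d (4.37 and 0.791 with LEV), 2.84 and 1.94 at 1 m (1.51 and 0.581 with LEV) and 5.12 and 5.87 at 2 m, beside 1.36 in naive. Type III collagen, encoded by Col3a1 (chr1:45311538-45349706, plus strand), forms fine fibres in vessel walls and soft tissue together with type I. The 2 m libraries did not overlap with the other 9, of which the infarcted PT 7 d LEV library was the highest. Its difference from the earlier conditions was 1.196 ± 0.22 (SE; adjusted p = 0.000811) and from 7 d 1.07 ± 0.24 (SE; adjusted p = 0.00781).

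Col5a2 was at 3.93 CPM in naive, 4.69 and 4.55 at 7 d, 6.09 and 4.80 at 7 d with LEV, 4.41 and 3.52 at 1 m, 3.02 and 3.35 at 1 m with LEV, and 11.4 and 12.7 at 2 m. Type V collagen, to which Col5a2 (chr1:45374321-45503282, minus strand) gives the alpha2 chain, starts and limits the growth of type I fibrils. Here both 2 m libraries stood far above all others, and the infarcted PT 7 d LEV library again came next. The mean CPM at 2 m was 2.80 times that of the earlier PT libraries, with a log2 difference of 1.32 ± 0.18 (SE; adjusted p = 7.08e-05), and of 1.12 ± 0.20 (SE; adjusted p = 0.00136) from 7 d. Its side difference at 2 m was -0.14.

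**Figure D1:**
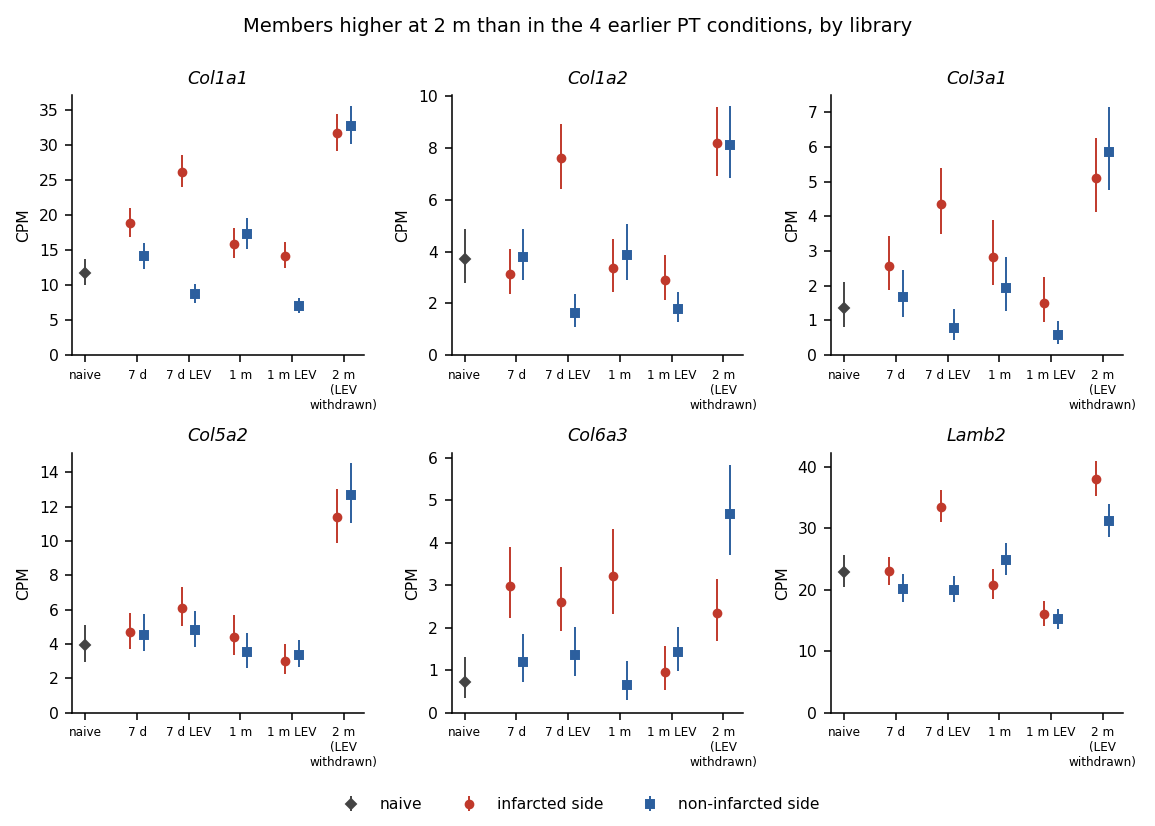
CPM (y axis, from 0) of the 6 members past the threshold at 2 m against the 4 earlier PT conditions, by condition (x axis). Points are single libraries, with red circles for the infarcted side, blue squares for the non-infarcted side and a grey diamond for naive, and bars are exact Poisson intervals at 95% that cover counting error only. In Col1a1, Col1a2, Col3a1 and Col5a2 both 2 m libraries lie above the other 9, while in Col6a3 and Lamb2 1 of the 2 m libraries lies within the range of the others.

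The 4 genes moved together at 2 m, so the sequence at their start sites is given where the RefSeq (GRCm38.p6) promoters used include it. It runs from 250 bases before to 50 after the annotated start, for Col3a1 (plus strand, chr1:45311288-45311587) and Col1a2 (plus strand, chr6:4505368-4505667). Capitals mark matches, on either strand, to 4 short motifs: TATAAA, the TATA box of many tissue-specific promoters; CCAAT, a box bound by the factor NF-Y; GGGCGG, the GC box bound by factors of the Sp family; and CAGAC, an element that SMAD factors can bind.
Col3a1: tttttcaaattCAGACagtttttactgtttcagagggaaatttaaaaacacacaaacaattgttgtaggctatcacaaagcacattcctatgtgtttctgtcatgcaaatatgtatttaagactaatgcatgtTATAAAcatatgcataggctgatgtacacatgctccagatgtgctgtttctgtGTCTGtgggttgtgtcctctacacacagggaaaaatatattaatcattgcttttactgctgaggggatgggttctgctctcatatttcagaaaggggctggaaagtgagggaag
Col1a2: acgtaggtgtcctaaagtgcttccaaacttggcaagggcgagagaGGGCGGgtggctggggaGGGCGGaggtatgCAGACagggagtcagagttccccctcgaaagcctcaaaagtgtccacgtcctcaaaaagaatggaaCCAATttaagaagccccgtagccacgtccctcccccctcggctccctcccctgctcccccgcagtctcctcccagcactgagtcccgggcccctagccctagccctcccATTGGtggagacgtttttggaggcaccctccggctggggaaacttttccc
The Col3a1 window holds 1 TATAAA and 2 CAGAC, a GC content of 37.7% and no CpG, and the Col1a2 window holds 2 CCAAT, 2 GGGCGG and 1 CAGAC with a GC content of 61.0% and 13 CpG. None of these matches overlap each other. The TATAAA match of Col3a1 lies far before the annotated start, and no match was tested as a working element. Among the 32851 promoters of the same length, 13.6% held TATAAA, 37.4% CCAAT, 35.7% GGGCGG and 49.6% CAGAC, so such matches are common. Matching by symbol gave 42 promoters for 38 of the 53 members, and Col1a1 and Col5a2 were not among these.

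Against the earlier conditions together, the rise was seen on both sides. Measured against the infarcted PT 7 d LEV library, the infarcted 2 m library was higher by 0.27 (Col1a1), 0.09 (Col1a2), 0.19 (Col3a1) and 0.81 (Col5a2). On the non-infarcted side these differences were 1.80, 1.79, 1.94 and 1.24 in that order. Fitted on the non-infarcted side alone, the 4 fibrillar genes were higher than in the earlier conditions by log2 1.48 (Col1a1, adjusted p = 9.58e-09), 1.33 (Col1a2, 2.50e-05), 1.66 (Col3a1, 1.86e-06) and 1.45 (Col5a2, 9.92e-07). On the infarcted side alone the differences were 0.76 (Col1a1, adjusted p = 0.0226), 0.89 (Col1a2, 0.0576), 0.73 (Col3a1, 0.121) and 1.19 (Col5a2, 0.00954), and against 7 d alone none of the 4 passed on that side. Each of these fits on 1 side leaves 1 library at 2 m, and whether the sides differ in this rise was not tested. The summed CPM of all 11 fibrillar genes was 82.0 and 85.6 at 2 m, against 40.1 to 74.6 in the other libraries, the highest of which was the infarcted PT 7 d LEV library.

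Fibroblast markers moved with these genes in part. Of the 12 fibroblast markers, 5 rose at 2 m against the earlier conditions (Islr, Aebp1, Slc6a13, Igf2 and Slc22a6) and 0 fell. Their summed CPM was 336.5 in the infarcted 2 m library, but 191.6 in the non-infarcted one, inside the range of 124.0 to 214.6 of the 8 libraries other than the 2 m pair and the infarcted PT 7 d LEV library. Col1a1, Col3a1 and Col5a2 were as high in that non-infarcted library as in the infarcted one. Without the infarcted PT 7 d LEV and the infarcted 2 m library, an alternative chosen after seeing the data, the differences from the earlier conditions were 1.33 for Col1a1, 1.32 for Col1a2, 1.48 for Col3a1 and 1.43 for Col5a2. That fit leaves 1 library at 2 m. It also drops the earlier library in which these genes were highest, so it cannot show the part of fibroblast content. Of 9 markers of pericytes and smooth muscle, 4 rose at 2 m (Rgs5, Tagln, Acta2 and Myh11), and of 9 endothelial markers 5 did, so vessel markers moved in the same direction. The pericyte and smooth muscle sum was 232.8 and 197.7 at 2 m, 240.5 in the infarcted PT 7 d LEV library and 130.5 to 183.6 elsewhere. The endothelial sum was 254.7 and 220.9 at 2 m, 221.8 in the infarcted PT 7 d LEV library and 161.6 to 215.2 elsewhere. The part of fibroblast and vessel content in the result was not tested.

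The other fibrillar genes tested did not pass. Col11a1 had 13.4 and 10.8 CPM at 7 d (10.98 and 10.1 with LEV), 9.27 and 10.7 at 1 m (9.94 and 10.8 with LEV) and 7.74 and 9.55 at 2 m, beside 12.8 in naive. Col11a1, a chain of the thin type XI fibrils best known from cartilage, differed by -0.28 ± 0.16 (SE; adjusted p = 0.237) at 2 m. Col5a1 was at 6.86 CPM in naive, 5.20 and 6.48 at 7 d, 8.01 and 6.33 at 7 d with LEV, 9.34 and 8.03 at 1 m, 7.68 and 6.08 at 1 m with LEV, and 6.32 and 5.69 at 2 m. Although Col5a1 encodes the partner chain of Col5a2 in type V collagen, its difference was -0.20 ± 0.18 (SE; adjusted p = 0.484). Col11a2 had 7.37 and 4.73 CPM at 7 d (6.61 and 5.03 with LEV), 6.28 and 6.10 at 1 m (5.41 and 5.63 with LEV) and 8.23 and 7.53 at 2 m, beside 6.36 in naive. Both 2 m values of Col11a2 were above the other 9 libraries, with a difference of 0.37 ± 0.17 (SE; adjusted p = 0.136). Col2a1, the cartilage fibre chain, was between 0.490 and 1.77 CPM and had its 2 lowest values at 2 m, and Col27a1 was between 1.36 and 3.17 CPM; their differences were -0.48 ± 0.22 (SE; adjusted p = 0.135) and -0.49 ± 0.21 (SE; adjusted p = 0.114). Col5a3 (0.402 to 1.01 CPM) and Col24a1 (0.126 to 0.800 CPM) did not pass the filter. Over the 9 fibrillar genes tested the median difference was 0.37, with 5 above 0, beside 0.06 over all genes.

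Lamb2 was at 22.9 CPM in naive, 23.0 and 20.2 at 7 d, 33.5 and 20.0 at 7 d with LEV, 20.8 and 24.9 at 1 m, 16.0 and 15.2 at 1 m with LEV, and 38.0 and 31.2 at 2 m. Lamb2, at chr9:108479736-108490530, plus strand, is the beta chain of laminins of vessel walls and of synaptic basement membrane. The infarcted 2 m library was the highest and the non-infarcted 2 m library was exceeded by the infarcted PT 7 d LEV library. Its difference from the earlier conditions was 0.68 ± 0.17 (SE; adjusted p = 0.00856), and from 7 d 0.52 ± 0.18 (SE; adjusted p = 0.104).

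Col6a3 had 2.97 and 1.18 CPM at 7 d (2.601 and 1.36 with LEV), 3.21 and 0.646 at 1 m (0.944 and 1.43 with LEV) and 2.34 and 4.69 at 2 m, beside 0.714 in naive. Col6a3 (chr1:90765923-90843971, minus strand) gives type VI collagen, a beaded filament around cells and vessels, its alpha3 chain. Its values rested on few reads, 9 to 79 in a library, and the rise came from the non-infarcted 2 m library: on the infarcted side alone the difference was 0.02 (adjusted p = 0.971) and on the other side 1.42 (adjusted p = 6.51e-05). On the means of both sides it was 0.72 ± 0.20 (SE; adjusted p = 0.0185).

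Against PT 1 m LEV as fitted, the condition before withdrawal, 7 members were higher at 2 m, 16.7% of the 42. This share was near the 16.6% of all genes that were higher. Of the members 0 were lower, where 10.9% of all genes were. The 7 higher members were the same 6 and Col8a1 (0.90 ± 0.24 (SE; adjusted p = 0.00819)), a chain of type VIII collagen. In that contrast 11 of 12 choroid plexus markers rose too, with a median difference of 1.41, and the Col8a1 call was lost without the choroid-poor libraries (infarcted PT 1 m and non-infarcted PT 1 m LEV; 0.44, adjusted p = 0.271), without the fibroblast-rich ones (infarcted PT 7 d LEV and infarcted 2 m; 0.52, adjusted p = 0.128) and with TMM scaling (0.84, adjusted p = 0.0519). Both 2 m libraries lay above the other 9 for 7 members (Col1a1, Col1a2, Col3a1, Col5a2, Col11a2, Lama3 and Col25a1), 16.7% beside 18.2% of all genes, and below them for 2 (Col2a1 and Col4a2), beside 11.9%; those shares are near or under the background. The calls depended on 1 library in particular: without the non-infarcted PT 7 d LEV library only Col5a2 was called against the earlier conditions (1.28, adjusted p = 0.0143), none against 7 d, and Col1a1 and Col5a2 against PT 1 m LEV, where 3.06%, 0.237% and 9.79% of all genes were higher in the same fits. Leaving out the non-infarcted 2 m library gave 12, 7 and 14 members instead, beside 12.8%, 3.10% and 19.6% of all genes. Against 7 d, leaving out the infarcted PT 1 m library gave 2 members, beside 0.187% of all genes, and leaving out the infarcted PT 7 d LEV library gave 7, beside 1.82%. With TMM scaling, which moved the median of all genes against PT 1 m LEV from 0.09 to -0.01, only Col1a1 (1.05) and Col5a2 (1.25) kept their call against the earlier conditions, where 0.293% of all genes were higher, and none did against 7 d, where 0% were. With no filter on low values no member and none of the 22268 genes then tested was called higher or lower at 2 m.

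**Figure D2:**
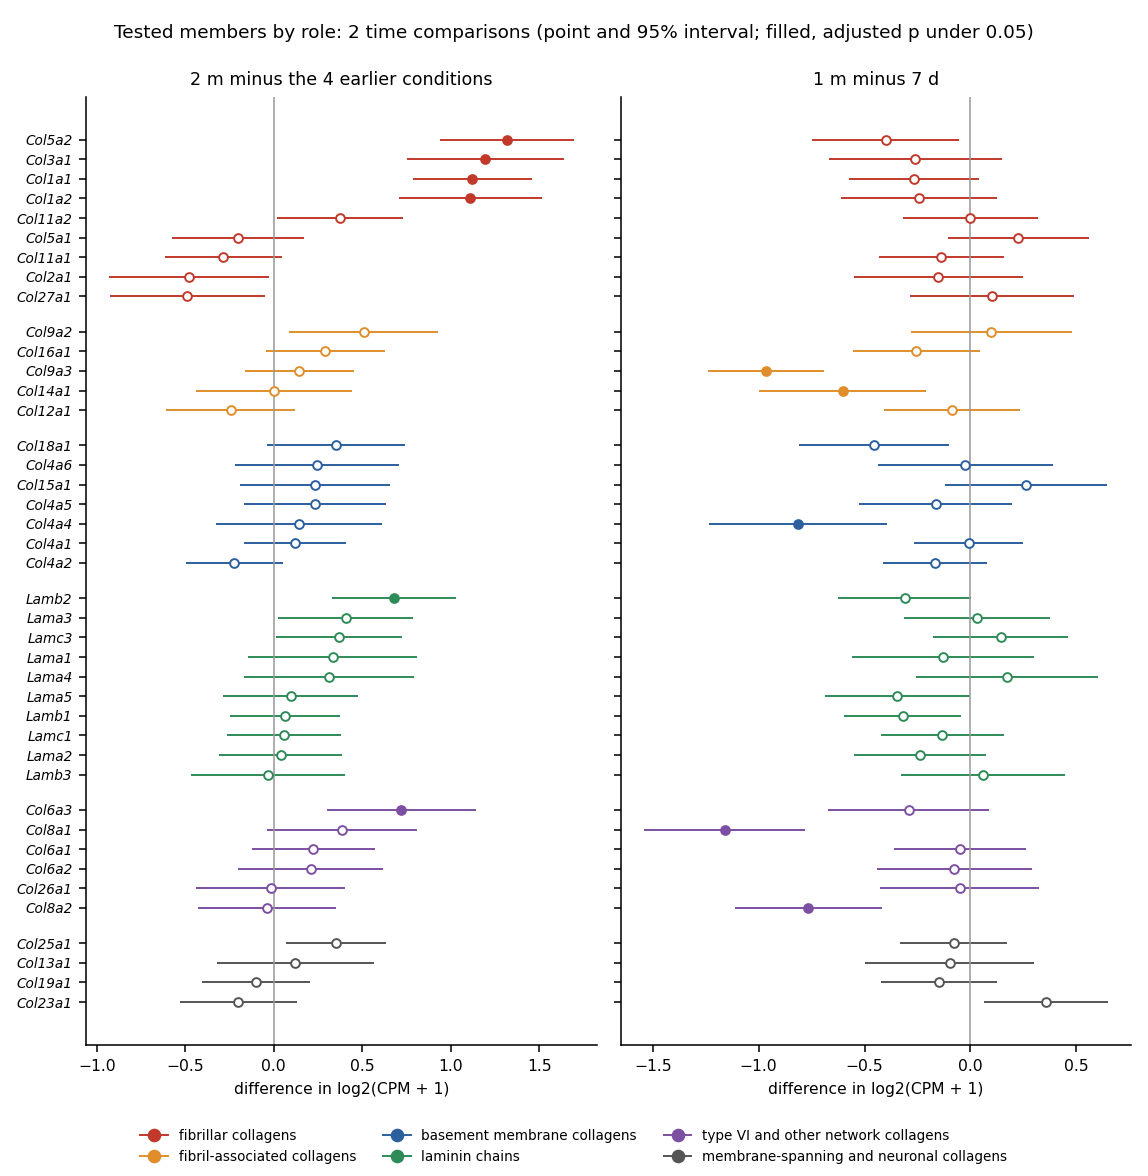
Differences in log2(CPM + 1) (x axes) of 41 of the 42 tested members, by role, for 2 m against the 4 earlier PT conditions (left) and for 1 m against 7 d (right). Points are estimates, bars are 95% intervals from limma and filled points have an adjusted p under 0.05. On the left, 4 fibrillar genes, Lamb2 and Col6a3 are filled and lie above 0, and on the right Col9a3, Col14a1, Col4a4, Col8a1 and Col8a2 are filled and lie below 0.

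Between the 7 d and the 1 m libraries, members were called lower at a share near that of all genes. Col9a3, Col14a1, Col4a4, Col8a1 and Col8a2 were lower at 1 m, 5 of 42 or 11.9% beside 10.1% of all genes; 0 were higher, where 5.71% of all genes were. TMM scaling left 2 of the 5, Col8a1 and Col9a3, beside 0.915% of all genes, and so did the infarcted side alone, beside 7.55%. DESeq2 left Col4a4 and Col8a1, beside 11.7%, and with no filter on low values none passed, beside 0.0853%. Col9a3 was at 26.9 CPM in naive, 21.4 and 19.7 at 7 d, 27.3 and 27.9 at 7 d with LEV, 7.40 and 14.3 at 1 m, 20.3 and 8.54 at 1 m with LEV, and 29.1 and 11.8 at 2 m. Type IX collagen, of which Col9a3 is the alpha3 chain, sits on the surface of fibrils. The difference was -0.97 ± 0.13 (SE; adjusted p = 3.00e-05), and the lowest values were those of the infarcted PT 1 m and the non-infarcted PT 1 m LEV library.

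Col8a1 had 2.34 and 2.80 CPM at 7 d (3.95 and 2.54 with LEV), 0.523 and 0.933 at 1 m (1.57 and 0.179 with LEV) and 3.60 and 1.48 at 2 m, beside 3.07 in naive. Col8a2 was at 6.57 CPM in naive, 4.80 and 5.36 at 7 d, 6.03 and 4.52 at 7 d with LEV, 1.42 and 3.08 at 1 m, 5.66 and 1.61 at 1 m with LEV, and 5.61 and 2.19 at 2 m. Col8a1 and Col8a2 (chr16:57624258-57754737, minus strand and chr4:126286793-126314330, plus strand) are the chains of type VIII collagen, a short-chain network former of endothelial and epithelial basement membranes. All 4 libraries of Col8a1 at 1 m were below the 4 at 7 d, as they were for 5 members (11.9%) and 19.1% of all genes, while for Col8a2 the groups overlapped. The differences were -1.16 ± 0.18 (SE; adjusted p = 0.000161) and -0.76 ± 0.17 (SE; adjusted p = 0.00365).

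Col4a4 had 1.09 and 1.18 CPM at 7 d (1.87 and 1.92 with LEV), 0.374 and 0.574 at 1 m (0.566 and 0.179 with LEV) and 1.91 and 0.475 at 2 m, beside 1.29 in naive. Col4a4 encodes the alpha4 chain of type IV collagen, part of a network restricted to some epithelial basement membranes, and differed by -0.81 ± 0.20 (SE; adjusted p = 0.00859). It passed the filter with a mean of 1.04 CPM, while the mean of the 7 libraries other than those at 7 d was 0.766 CPM, under the minimum of 1, so it was tested only because of the libraries in which it was high and its call adds no support beyond its values. Its partner Col4a3 did not pass the filter and was between 0.0717 and 0.378 CPM at 1 m against 0.629 to 0.685 at 7 d. Col14a1 was at 1.21 CPM in naive, 2.23 and 1.62 at 7 d, 2.55 and 2.37 at 7 d with LEV, 1.64 and 0.933 at 1 m, 0.755 and 1.12 at 1 m with LEV, and 1.96 and 1.25 at 2 m. Col14a1, which binds the surface of fibrils, differed by -0.60 ± 0.19 (SE; adjusted p = 0.0326), with groups that overlapped in part.

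Of these members, 4 were lowest where choroid plexus markers were lowest. All 12 choroid plexus markers were lower at 1 m, Ttr by 3.65 on the log2 scale, and the infarcted PT 1 m and non-infarcted PT 1 m LEV libraries had the lowest sums and the lowest values of Col9a3, Col8a1, Col8a2 and Col4a4. Col14a1 did not share this order: its lowest values, 0.755 and 0.933 CPM, were in the infarcted PT 1 m LEV and the non-infarcted PT 1 m library, and the infarcted PT 1 m library had 1.64 CPM. Without those 2 libraries, chosen after seeing the data, the differences were -0.46 for Col9a3 (adjusted p = 0.0482), -0.79 for Col8a1 (0.0162), -0.24 for Col8a2 (0.483), -0.66 for Col4a4 (0.0606) and -0.78 for Col14a1 (0.0222). In the 2 m pair, the non-infarcted library, with the lower choroid sum, also held the lower values of all 5. How far the choroid plexus content of the libraries takes part in these differences was not tested. Without the infarcted PT 1 m library, only Col8a1 and Col9a3 passed, beside 4.27% of all genes lower in the same fit.

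**Figure D3:**
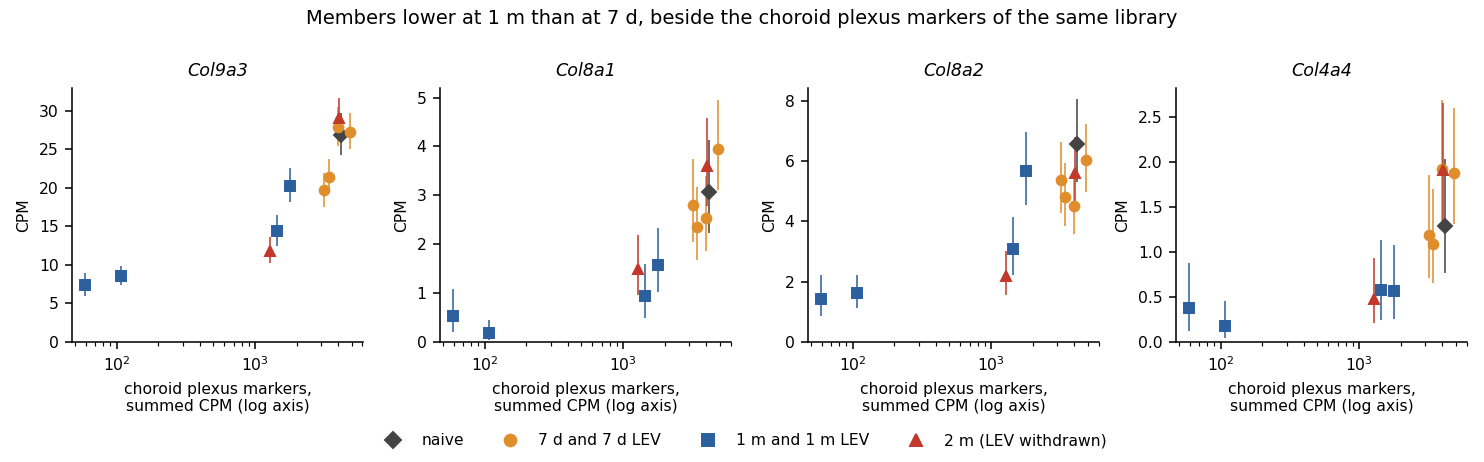
CPM of Col9a3, Col8a1, Col8a2 and Col4a4 (y axes, from 0) beside the summed CPM of 12 choroid plexus markers in the same library (x axes, log scale), with 1 point per library and exact Poisson intervals at 95% for counting error only. The 2 leftmost libraries, infarcted PT 1 m (sum 59.3) and non-infarcted PT 1 m LEV (106.6), hold the lowest values of all 4 genes.

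The Col8a1 promoter, shown as that of the member with the largest fall, was read from RefSeq (GRCm38.p6, minus strand, chr16:57754688-57754987), with the same motifs in capitals.
Col8a1: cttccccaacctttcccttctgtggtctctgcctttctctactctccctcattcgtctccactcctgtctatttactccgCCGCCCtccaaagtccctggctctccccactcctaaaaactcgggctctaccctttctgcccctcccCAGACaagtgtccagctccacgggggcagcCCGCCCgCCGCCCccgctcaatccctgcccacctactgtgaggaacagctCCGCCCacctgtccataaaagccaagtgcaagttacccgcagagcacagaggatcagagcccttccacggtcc
It holds 4 GGGCGG on its reverse strand and 1 CAGAC, with 12 CpG.

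The most abundant basement membrane genes did not pass the threshold. Col4a1 had 34.6 and 23.4 CPM at 7 d (33.7 and 28.6 with LEV), 26.5 and 27.5 at 1 m (32.5 and 32.1 with LEV) and 32.8 and 31.7 at 2 m, beside 32.5 in naive. Col4a2 was at 72.8 CPM in naive, 74.6 and 69.8 at 7 d, 71.1 and 69.3 at 7 d with LEV, 59.0 and 63.5 at 1 m, 65.2 and 65.5 at 1 m with LEV, and 55.7 and 58.9 at 2 m. Col4a1 and Col4a2 encode the alpha1 and alpha2 chains that make the type IV collagen of nearly all basement membranes. Neither passed the threshold in any contrast: at 2 m they differed from the earlier conditions by 0.12 ± 0.14 (SE; adjusted p = 0.609) and -0.22 ± 0.13 (SE; adjusted p = 0.261). The 2 lowest Col4a2 values were both at 2 m, though the non-infarcted one (58.9 CPM) was hardly below the infarcted PT 1 m library (59.0 CPM). With the edgeR and DESeq2 count tests Col4a2 was called lower at 2 m, against the earlier conditions and against 7 d.

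These 2 genes lie head to head on opposite strands of chromosome 8, with annotated starts 21 bases apart and first bases that overlap, so both start within the window below, the Col4a2 promoter of RefSeq (GRCm38.p6, plus strand, chr8:11312555-11312854), with the same motifs in capitals. It is shown because 1 stretch of sequence holds the starts of both chains.
Col4a2: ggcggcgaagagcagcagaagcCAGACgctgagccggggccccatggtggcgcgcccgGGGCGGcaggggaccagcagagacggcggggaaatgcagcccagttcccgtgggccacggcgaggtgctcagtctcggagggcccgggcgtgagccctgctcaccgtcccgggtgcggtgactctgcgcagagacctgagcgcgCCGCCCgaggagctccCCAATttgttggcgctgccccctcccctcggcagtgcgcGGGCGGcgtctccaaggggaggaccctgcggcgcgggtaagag
The window has a GC content of 73.7% with 33 CpG and holds 3 GGGCGG, 1 CCAAT and 1 CAGAC. The table's row names carry the strand, but the sources used here do not say how reads were assigned to genes, so reads of the 2 overlapping starts may not be fully separate.

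Col18a1 had 2.97 and 3.49 CPM at 7 d (5.25 and 3.05 with LEV), 1.87 and 2.58 at 1 m (3.46 and 1.79 with LEV) and 5.56 and 2.85 at 2 m, beside 3.21 in naive. Col4a5 was at 2.21 CPM in naive, 3.03 and 3.24 at 7 d, 3.12 and 1.64 at 7 d with LEV, 2.47 and 3.44 at 1 m, 1.89 and 1.65 at 1 m with LEV, and 2.997 and 3.203 at 2 m. Col18a1, the source of endostatin, is found in vessel and choroid plexus basement membranes, and Col4a5 joins the wider type IV networks. Their differences at 2 m were 0.35 ± 0.19 (SE; adjusted p = 0.21) and 0.23 ± 0.19 (SE; adjusted p = 0.446). Col15a1 and Col4a6 were between 0.565 and 3.02 CPM. Over the 7 basement membrane collagens tested the median difference at 2 m was 0.23, with 6 above 0, and at 1 m against 7 d it was -0.16.

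Lamc1 had 26.4 and 27.7 CPM at 7 d (38.3 and 30.8 with LEV), 32.3 and 29.1 at 1 m (26.1 and 24.1 with LEV) and 28.3 and 32.4 at 2 m, beside 37.4 in naive. Lamb1 was at 26.4 CPM in naive, 26.9 and 24.5 at 7 d, 28.2 and 32.3 at 7 d with LEV, 23.2 and 24.0 at 1 m, 20.96 and 20.5 at 1 m with LEV, and 25.1 and 26.9 at 2 m. Lamc1 and Lamb1 give the gamma1 and beta1 chains of the most widespread laminins, and Lamc3 a gamma chain of adult brain and retina. Lamc3 was at 14.996 CPM in naive, 8.63 and 10.3 at 7 d, 16.0 and 7.85 at 7 d with LEV, 12.1 and 14.6 at 1 m, 9.76 and 10.1 at 1 m with LEV, and 15.2 and 13.5 at 2 m. None of the 3 passed in a contrast, with differences at 2 m of 0.06 ± 0.16 (SE; adjusted p = 0.841), 0.06 ± 0.15 (SE; adjusted p = 0.813) and 0.37 ± 0.17 (SE; adjusted p = 0.145). The alpha chains Lama1 to Lama5, which carry the cell-binding end of the molecule, were between 1.43 and 9.36 CPM and none passed. Over the 11 laminin genes, the median difference at 2 m was 0.31 with 10 above 0, and all but Lamb2 were under the threshold. Lamb3, a beta chain of epithelial laminin, was between 0.961 and 1.57 CPM.

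Col6a1 had 32.7 and 28.5 CPM at 7 d (38.5 and 33.1 with LEV), 38.9 and 40.0 at 1 m (24.9 and 26.5 with LEV) and 43.8 and 33.04 at 2 m, beside 40.8 in naive. Col6a2 was at 9.14 CPM in naive, 9.54 and 7.85 at 7 d, 14.0 and 10.3 at 7 d with LEV, 11.7 and 12.2 at 1 m, 8.31 and 7.19 at 1 m with LEV, and 14.3 and 9.43 at 2 m. The alpha1 and alpha2 chains of type VI collagen are encoded by Col6a1 and Col6a2 and assemble with that of Col6a3. At 2 m they differed by 0.22 ± 0.17 (SE; adjusted p = 0.386) and 0.21 ± 0.20 (SE; adjusted p = 0.509). Col26a1 had 3.71 and 2.37 CPM at 7 d (4.21 and 3.79 with LEV), 3.51 and 4.304 at 1 m (2.77 and 2.82 with LEV) and 3.60 and 3.08 at 2 m, beside 2.50 in naive. Of the 6 type VI and other network genes tested, 4 lay above 0 at 2 m, with a median of 0.22. Col6a4, Col6a5, Col6a6, Col7a1 and Col10a1 did not pass the filter, and Col10a1, the collagen of growth cartilage, had 1 read in all libraries together.

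Among fibril-associated collagens beside Col9a3 and Col14a1, Col16a1 had 10.63 and 8.28 CPM at 7 d (11.7 and 7.35 with LEV), 7.55 and 7.89 at 1 m (8.43 and 6.88 with LEV) and 11.4 and 9.79 at 2 m, beside 8.43 in naive. Col12a1 was at 5.21 CPM in naive, 7.71 and 6.35 at 7 d, 11.2 and 7.40 at 7 d with LEV, 7.25 and 8.54 at 1 m, 8.62 and 5.81 at 1 m with LEV, and 7.58 and 5.34 at 2 m. Col9a2 had 1.37 and 2.06 CPM at 7 d (4.99 and 2.20 with LEV), 2.76 and 2.30 at 1 m (2.96 and 2.73 with LEV) and 4.90 and 3.32 at 2 m, beside 1.36 in naive. Col16a1 and Col12a1 link fibrils to other matrix, and Col9a2 is a partner chain of Col9a3. None passed in a contrast. At 2 m Col9a2 differed by 0.51 ± 0.20 (SE; adjusted p = 0.0883), the largest difference of the 5 tested. Col22a1 (0.0714 to 0.712 CPM) and Col9a1 (at most 0.252 CPM, 0 in 3 libraries) did not pass the filter.

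No membrane-spanning or neuronal collagen passed in a contrast. Col25a1 was at 36.3 CPM in naive, 35.3 and 36.4 at 7 d, 36.6 and 38.1 at 7 d with LEV, 33.2 and 33.4 at 1 m, 31.8 and 40.7 at 1 m with LEV, and 49.1 and 42.5 at 2 m. Col25a1, whose protein is the membrane-spanning collagen found in amyloid plaques, was highest in both 2 m libraries, and its difference from the earlier conditions, 0.35 ± 0.14 (SE; adjusted p = 0.0777), did not pass. Col19a1 had 19.9 and 20.7 CPM at 7 d (19.4 and 21.5 with LEV), 18.7 and 20.4 at 1 m (16.99 and 17.2 with LEV) and 16.5 and 19.5 at 2 m, beside 19.1 in naive. Col19a1 is made by interneurons in the hippocampus and helps form inhibitory synapses. Its values spanned 16.5 to 21.5 CPM, with a difference at 2 m of -0.10 ± 0.15 (SE; adjusted p = 0.693), whose 95% interval of -0.41 to 0.21 does not reach the size seen for Col1a1. Col23a1 was at 14.9 CPM in naive, 9.08 and 7.60 at 7 d, 11.2 and 8.70 at 7 d with LEV, 13.7 and 9.33 at 1 m, 14.3 and 10.8 at 1 m with LEV, and 11.01 and 7.18 at 2 m. Col23a1, another membrane-spanning collagen, was higher on the infarcted side in all 5 pairs, and Col13a1, found at neuromuscular and other cell junctions, was low. Col13a1 was at 1.64 CPM in naive, 0.743 and 1.06 at 7 d, 2.03 and 0.678 at 7 d with LEV, 0.673 and 0.933 at 1 m, 1.51 and 0.715 at 1 m with LEV, and 1.58 and 0.831 at 2 m. Col17a1, a collagen of epithelial anchoring, was at most 0.468 CPM and was not tested.

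**Figure D4:**
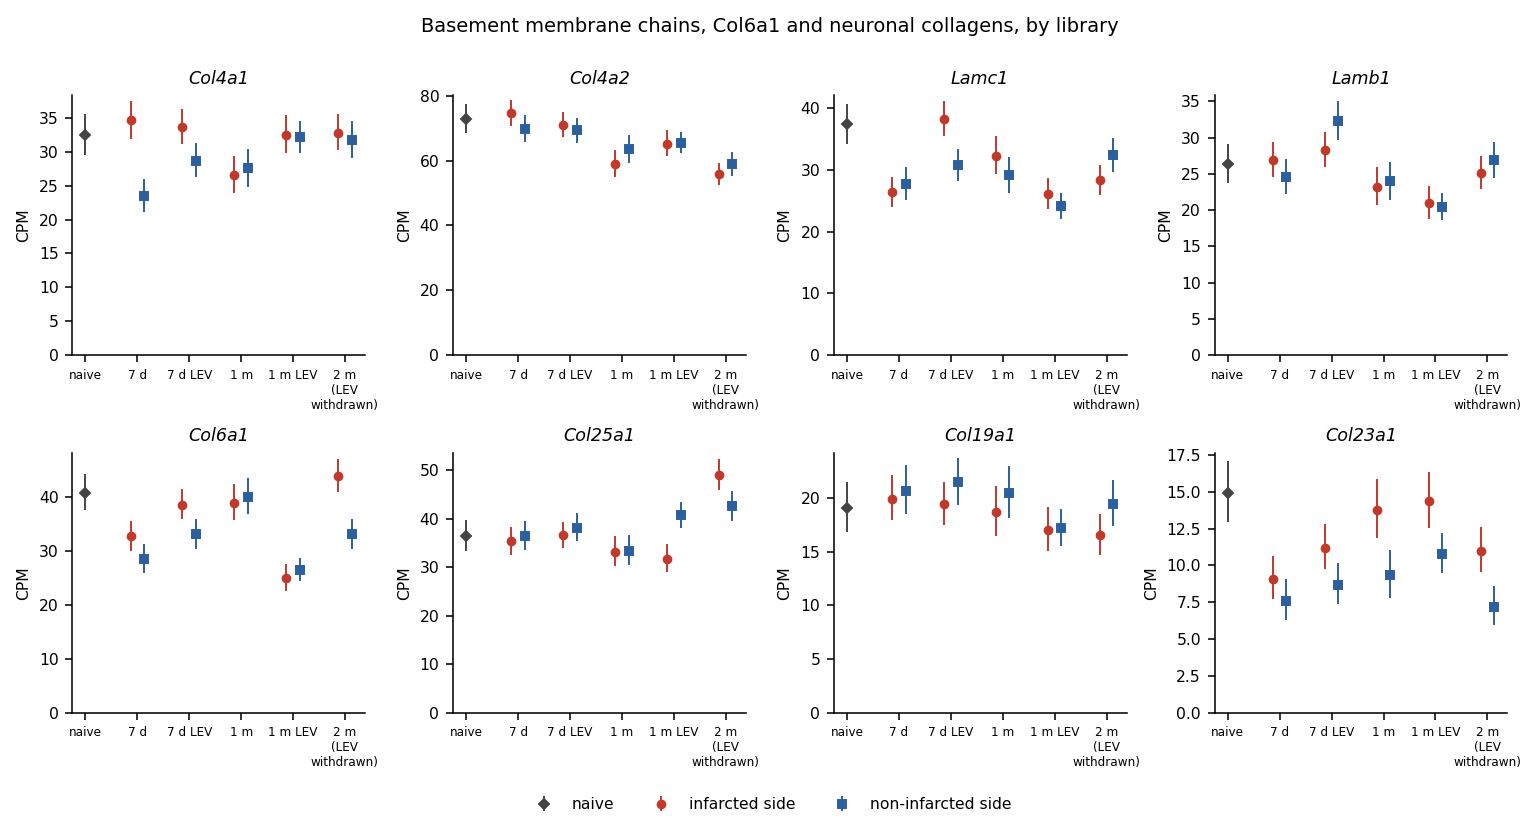
CPM (y axes, from 0) of 4 basement membrane chains, Col6a1 and 3 neuronal collagens by condition (x axis), with 1 point per library and exact Poisson intervals at 95% for counting error only; red circles are the infarcted side, blue squares the non-infarcted side and the grey diamond naive. None of these 8 genes passed in a contrast, and Col25a1 shows its 2 highest values, 49.1 and 42.5 CPM, at 2 m.

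Between the sides, no member passed the threshold, and 0 of all genes did in either direction (background 0% higher and 0% lower; 1221 of 16057 at an unadjusted p under 0.05, with 0 calls by edgeR and 15 by DESeq2). The infarcted side was higher in all 5 pairs for 1 member, Col23a1, 2.38% of the members beside 5.26% of all genes, and lower in all 5 for 1, Col19a1, beside 2.71%. The Col23a1 difference was 0.40 ± 0.08 (SE; adjusted p = 0.339). Of the 42 members 35 lay above 0, with a median of 0.20, beside 0.02 over all genes. Side differences varied with the condition, most widely for Col6a3, from -0.77 at 2 m to 1.36 at 1 m. The side difference of Col1a1 was 0.39 at 7 d, 1.49 at 7 d with LEV, -0.11 at 1 m, 0.92 at 1 m with LEV and -0.04 at 2 m. Col3a1 differed by 0.41, 1.58, 0.39, 0.67 and -0.17 in the same order. Their side differences over all 5 pairs, 0.53 ± 0.18 (SE; adjusted p = 0.532) and 0.58 ± 0.20 (SE; adjusted p = 0.525), did not pass. Without the PT 7 d LEV and 2 m pairs they were 0.40 and 0.49.

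**Figure D5:**
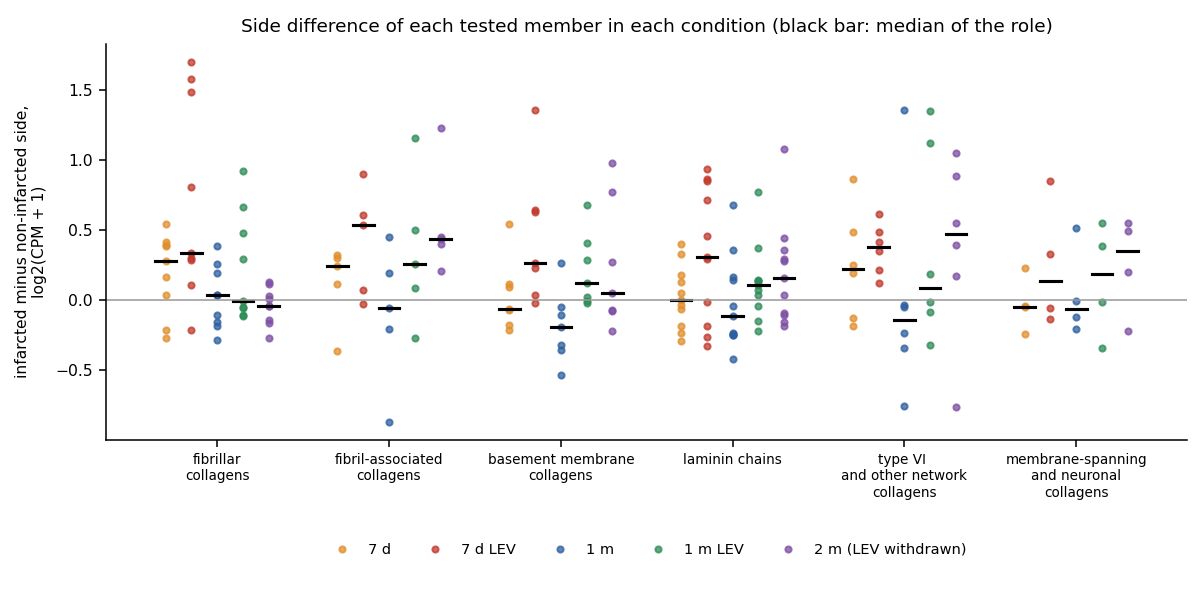
Side difference in log2(CPM + 1), infarcted minus non-infarcted (y axis), of each tested member by role (x axis) and condition (colour), with a black bar at the median of the role. The largest differences are those of 3 fibrillar genes in the PT 7 d LEV pair, while at 2 m the fibrillar median is -0.04.

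Whether the side difference changed with time or with LEV was tested directly. No member passed for time, nor did any of all genes (0% in either direction; 1056 at an unadjusted p under 0.05). For LEV, 27 genes of 16057 had a larger side difference with LEV (0.168%) and 0 a smaller one (0%), and no member was among them. Col1a1 came nearest, with 1.06 ± 0.15 (SE; adjusted p = 0.0584), and passed with TMM scaling (1.08, adjusted p = 0.0277). Of the fibroblast markers, 6 of 12 passed that contrast (Slc13a4, Igf2, Slc6a13, Aebp1, Foxc1 and Slc47a1), as did Fbln1, a matrix glycoprotein of basement membranes, and Vtn.

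For LEV itself, averaged over sides, no member passed the threshold. Of all 16057 genes 2 were higher (0.0125%), 1 was lower (0.00623%) and 980 had an unadjusted p under 0.05. The 95% intervals of the 42 members had a median width of 0.70 on the log2 scale, so changes within them are not excluded. The fibrillar genes lay mostly below 0, 8 of 9, with a median of -0.09 beside -0.02 over all genes. Col1a1 was -0.38 ± 0.15 (SE; adjusted p = 0.794). By pair, its LEV difference was 0.46 and -0.64 at 7 d and -0.16 and -1.18 at 1 m, so that it was lower with LEV on the non-infarcted side at both times. Fitted on that side alone it was -0.91 (adjusted p = 0.00199), where 0.218% of all genes were lower. On the infarcted side it was 0.15 (adjusted p = 0.883). Without the infarcted PT 7 d LEV library it was -0.75 (adjusted p = 0.045), where 0.0249% of all genes were lower. Col9a2 and Col23a1 were higher with LEV in all 4 pairs (4.76% of members, beside 8.65% of all genes) and 0 were lower in all 4, beside 12.4%; both shares are under the background.

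Against the naive library, which allows no test, Col1a1, Col3a1 and Col5a2 were higher at 2 m by a log2 of at least 1 on both sides, 3 of 42 or 7.14% beside 0.504% of all genes. They differed from naive by 1.36 and 1.40 (Col1a1), 1.38 and 1.54 (Col3a1), and 1.33 and 1.47 (Col5a2). Col8a1 was lower in both PT 1 m libraries by that measure, 1 of 42 or 2.38% beside 0.255% of all genes. This comparison shares the 2 m libraries with those above and is no separate evidence.

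Genes that fold, cross-link and cut collagen were read beside the members. Of 27 such genes tested, Pcolce, which speeds the trimming of procollagen, and Lox, which cross-links fibrils, rose at 2 m against the earlier conditions (1.03 and 1.06), 2 genes beside 9.07% of all genes, while Bmp1, a procollagen protease, fell by 0.40 on the log2 scale. Against PT 1 m LEV, 5 rose, among them Serpinh1, the collagen chaperone (0.86), and 1 fell, beside 16.6% and 10.9% of all genes. At 1 m against 7 d, 4 fell (Pcolce, Ppib, Pcolce2 and P4ha1) and 0 rose, beside 10.1% and 5.71%. The median of the 27 at 2 m was 0.06, as over all genes.

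Of 13 basement membrane partners, 1 rose at 2 m against the earlier conditions, Sparc, a collagen-binding matricellular protein (1.00, adjusted p = 4.41e-05). Sparc was also higher than at 7 d (0.72) and lower at 1 m than at 7 d (-0.57). Of 14 receptors, 2 rose, Bcam, which binds the laminin alpha5 chain (0.56), and Itga7, an integrin subunit for laminin (0.43); Itga6, another laminin-binding integrin subunit, fell against 7 d (-0.56). Of 7 turnover genes, Mmp14, a membrane-bound collagenase, rose (0.70). Over the 4 lists, 6 of 61 genes rose at 2 m against the earlier conditions, or 9.84%, near the 9.07% of all genes. Neither LEV nor side called any of these 61 genes, and the side difference by LEV called Fbln1.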

How the data were processed

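The authors deposited 1 table of CPM for each gene, that is reads relative to the library's own total, for 11 CAGE libraries. The submitters' processing notes name the tools HISAT2 2.0.5, BWA 0.7.17 and DESeq2 1.20.0 and the build GRCm38; what each was used for, and the counting rule, the sources used here do not give. All CPM values were whole reads of their library (100% to a tolerance of 0.0001), so library totals were recovered; intervals and floors (3 reads) cover counting error only. Coordinates are from GENCODE M21 (GRCm38) for all 53 members, 5 of them matched without the version number; promoter sequences and their coordinates are from RefSeq (GRCm38.p6).

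Tests used limma 3.58.1 (lmFit, eBayes with a trend) in R 4.3.3 on log2(CPM + 1), for 16057 genes with a mean of at least 1 CPM, two-sided, with Benjamini-Hochberg adjustment over all of them in each of 8 contrasts. Side was fitted over 10 PT libraries with condition as a block. LEV, time and the 2 m contrasts were fitted on means of both sides, with 1 residual degree of freedom. The 2 m condition has no repeat and is assumed to vary like the others. PT 1 m LEV stands in its contrast at the value fitted by adding the time and LEV effects, which assumes that LEV acts alike at both times. Fold changes on the log2(CPM + 1) scale understate changes of low genes. Against naive there was no test: members that differed by a log2 of 1 or more, with 1 sign on both sides, were counted. The fits were also run on simulated data in which libraries varied independently. These had no shared animals, spread between conditions or differences in tissue content, so they cannot vouch for the p-values here. edgeR 4.0.16 and DESeq2 1.42.0 on the recovered reads, TMM scaling, other pseudocounts (0.5, 5) and filters, single sides and left-out libraries were alternatives.

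The members, lists and alternatives were chosen with earlier results of these data known. Values per library were given for up to 4 members of each role with the highest mean CPM and for every member past the threshold; of the pathway lists, members past the threshold were named, up to 4 per list and contrast. Col20a1 and Col28a1 were not analysed here. The values of 1 laminin gene, which is counted among the members, are not reported here.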

Additional observations from a re-analysis of the deposited data

Results flagged for a closer look

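In 10 of the 42 tested members the LEV difference had 1 sign in both libraries at 7 d and the opposite sign in both at 1 m, 23.8% of members beside 16.4% of all genes. The difference between the times was not tested. In 8 of them LEV libraries were higher at 7 d and lower at 1 m. The difference at 1 m minus that at 7 d, in log2(CPM + 1) over means of both sides, was -1.23 for Lama4, the alpha chain of vascular laminins, -1.15 for Lama1, -1.002 for Col6a2, -0.82 for Col6a1, -0.69 for Col26a1, -0.61 for Lamc1, -0.43 for Col5a2 and -0.40 for Lamb1. Col11a1 (0.23) and Col4a2 (0.13) went the other way. Lama4 was higher with LEV by 0.73 and 0.27 at 7 d and differed by -0.69 and -0.78 at 1 m. Groups of 1 library allowed no search for outlying samples within a group.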

How the results depend on the processing

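Counts of members depended on the fit. Members higher at 2 m were 6 against the earlier conditions, 4 against 7 d and 7 against PT 1 m LEV. Of these, no filter on low values left 0, 0 and 0, beside 0% of the 22268 genes then tested. A minimum of 5 CPM, which tests fewer members, left 3, 2 and 3, beside 11.7%, 2.35% and 19.9% of all genes. TMM scaling left 2 and 0 in the first 2, beside 0.293% and 0%. DESeq2 gave 2 against 7 d, beside 6.89% of all genes. Against 7 d, calls also changed on the infarcted side alone and without the fibroblast-rich libraries (infarcted PT 7 d LEV and 2 m), fits that leave 1 library at 2 m. Members lower at 2 m were 3, 2 and 3 with edgeR, beside 18.3%, 11.8% and 23% of all genes. With DESeq2 they were 1, 1 and 2, beside 16.8%, 10.8% and 20.4%. With libraries as independent they were 2, 1 and 2, beside 15.1%, 10.2% and 17.6%. Without the trend 1 was lower against PT 1 m LEV, beside 8.99%. The main fit had 0 in each contrast. Some fits that leave 1 library at 2 m also called members lower. Leaving out 1 library gave 1 to 12, 0 to 7 and 2 to 14 members higher, and 0 to 3, 0 to 2 and 0 to 1 lower.

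Of the 5 members lower at 1 m, 0 were left with no filter and 1 at 5 CPM, beside 0.0853% and 11.6% of all genes. TMM and DESeq2 left 2 each, beside 0.915% and 11.7%. Fewer were also left on the infarcted side alone and on leaving out some single libraries. Col23a1 was the 1 member higher at 1 m with edgeR, DESeq2 and libraries as independent, beside 14.9%, 12.8% and 11.2% of all genes. It was also called in some fits that leave 1 library in a condition. Col1a1 was the 1 member lower with LEV on the non-infarcted side, beside 0.218% of all genes. It was also the 1 lower without the fibroblast-rich libraries, beside 0.0249% (0 to 1 on leaving out 1 library). Its LEV difference turned to 0.15 on the infarcted side. For the side difference by LEV, 1 member passed with TMM, beside 0.255% of all genes. Calls for the side difference by LEV and by time changed on leaving out 1 condition. At 2 m against naive, 6 members met the fold rule with a pseudocount of 0.5 and 1 with 5. With 5, 0 were lower at 1 m. The shares of all genes with these pseudocounts were not counted. The cause was not tested except where the construction is named. For all genes, TMM moved the calls at 2 m against the earlier conditions from 1456 higher and 1270 lower to 47 and 252, and at 1 m against 7 d from 917 and 1620 to 163 and 147.

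The side contrast gave 0 members without the replicate block too. The labels give no replicate numbers; the block is the condition, which pairs the 2 sides. Low members, such as Col6a3 with 9 to 79 reads, are limited by counting error.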
